A study of Ginkgo biloba with 16 samples.

Results

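The genes described here are 4 entries of the *Ginkgo biloba* gene table tied to lignan formation, out of 43911 entries in all. They comprise 2 homologs of phenylcoumaran benzylic ether reductase (PCBER), *Gb_21756* and *Gb_39102*, and 2 dirigent entries, *Gb_12517* and *Novel00086*. The rule that chose them names assigned functions and no measured value, but it was written with earlier results of these data known, so their levels may have been in view. The gene table itself carries no functional annotation, so these assignments come from outside it, and no sequence was at hand to check them. RNA was sequenced from the vascular cambium of healthy female trees growing under natural conditions, with 1 library per tree. The groups were VC20 (trees of 15, 20 and 22 y), VC200 (193, 211 and 236 y) and VC600 (538, 553 and 667 y), and the trees of each group are lettered A, B and C in order of age.

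Lignans are dimers of monolignols, the phenolic alcohols that also build lignin. Laccases, known from *Arabidopsis*, oxidize monolignols to radicals, and dirigent proteins, first described in *Forsythia*, steer the coupling of 2 coniferyl alcohol radicals to a dimer of defined handedness such as pinoresinol. Pinoresinol lariciresinol reductase (PLR) then reduces pinoresinol, and secoisolariciresinol dehydrogenase oxidizes a later product. PCBER, an abundant xylem protein in poplar, reduces a different class of dimers, the phenylcoumarans. Lignans and the products of PCBER are known as antimicrobial or antioxidant compounds of wood and bark.

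Levels are given as fragments per kilobase of transcript, scaled to the size of each library (FPKM). The totals implied by the values were 15732412 to 18811771 fragments per library, and whole fragment numbers could be recovered for all 4 genes. The library of tree C of VC200 stood apart from the rest. Over the 21924 entries that reached 1 FPKM in 3 or more libraries, its Spearman correlations with the other 8 libraries were 0.830 to 0.887, whereas pairs among those 8 lay at 0.911 to 0.976. Fold changes that rest on this library, and the descriptions it moves most, are therefore given with and without it. The 7 genes of a cambium list (2 *WOX4* and 5 *HD-ZIP III* genes) were detected in every library, except that 1 of them was at 0 in tree C of VC200. In whole-tissue RNA, fewer cells of a type and less RNA per cell cannot be told apart, and tree age cannot be told apart from whatever else differed between these trees.

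The PCBER homolog *Gb_21756* was among the strongly expressed genes of the cambium, and its lowest levels were in VC200. It lies on the minus strand of scaffold 3515, at positions 209060 to 211061, with a transcript length of 1314 bases. It had 302, 328 and 180 FPKM in VC20 trees A, B and C, 103, 238 and 72.8 FPKM in VC200 trees and 225, 189 and 355 FPKM in VC600 trees. Trees A and C of VC200 lay below every tree of the other groups, but tree B of VC200 lay above the lowest trees of both VC20 and VC600, so the groups overlapped. These levels rest on 1552 to 7820 fragments per library, for which the counting error was 1.13% to 2.54%, far below the spread between trees. Its mean over all 9 libraries, 221 FPKM, ranked 709 among the 43911 entries.

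In VC200 vs VC20, *Gb_21756* averaged 138 ± 87.7 FPKM in VC200 and 270 ± 78.8 FPKM in VC20 (SD, n = 3 each). The log2 fold change of FPKM + 1 was -1.10 (SE 0.44, 95% interval -2.10 to -0.10), a 0.467-fold level, and it did not pass the test (limma, adjusted p = 0.214, unadjusted p = 0.035). A gene counted as called, higher or lower, where its adjusted p was under 0.05 and its log2 fold change was 1 or more in size. Without tree C of VC200 the value was -0.73 (limma, adjusted p = 0.343). When limma weighted each library by how closely it followed its group, it was -1.22 and the gene was called lower (adjusted p = 0.031), in a fit that called 7.49% of all tested entries. On fragments, edgeR gave -0.86 (adjusted p = 0.266) and DESeq2 gave -0.85 (adjusted p = 0.221), and neither called it.

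In VC600 the level of *Gb_21756* was close to that of VC20. It averaged 256 ± 87.2 FPKM in VC600 and 270 ± 78.8 FPKM in VC20 (SD, n = 3 each), with a log2 fold change of -0.08 and a 95% interval of -1.08 to 0.92 (limma, adjusted p = 0.986). That interval still allows a level from 0.472-fold to 1.89-fold, so a difference of about that size could not be detected with these trees. The sign of so small a value was not stable, and it was positive when tree A or B of VC20 or tree B of VC600 was left out. In VC600 vs VC200 the log2 fold change was 1.02 (95% interval 0.02 to 2.02, limma, adjusted p = 0.486, unadjusted p = 0.047), and 0.65 without tree C of VC200 (adjusted p = 0.478).

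The other PCBER homolog, *Gb_39102*, was detected at a low level in most trees and was at 0 in tree C of VC200. It lies on the plus strand of scaffold 8559, at positions 249903 to 251277, with a transcript length of 1056 bases. It had 5.51, 0.596 and 3.33 FPKM in VC20 trees A, B and C, 0.805, 0.789 and 0 FPKM in VC200 trees and 1.62, 0.782 and 0.452 FPKM in VC600 trees. Trees A and C of VC20 were thus the high ones, while tree B of VC20 lay below 2 trees of each older group. Recovered fragments in trees A, B and C numbered 107, 11 and 57 for VC20, 16, 15 and 0 for VC200, and 30, 13 and 8 for VC600. The exact Poisson 95% interval was 87.7 to 129 fragments for tree A of VC20 and 5.49 to 19.7 for tree B, so these 2 young trees differed beyond counting error. The 0 in tree C of VC200 allows a level of up to 0.175 FPKM, that of 3 fragments, as a one-sided limit. Intervals and limits of this kind cover counting error only.

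*Gb_39102* reached 1 FPKM in only 3 libraries, 2 of VC20 and 1 of VC600, and so just passed the filter on low values, which it would not have passed without its high young trees. In VC200 vs VC20 it averaged 0.531 ± 0.460 FPKM in VC200 and 3.15 ± 2.46 FPKM in VC20 (SD, n = 3 each), with a log2 fold change of -1.27 (95% interval -2.41 to -0.13, limma, adjusted p = 0.209, unadjusted p = 0.033). In VC600 vs VC20 the log2 fold change was -0.91 (95% interval -2.05 to 0.23, limma, adjusted p = 0.780). Adding 1 to such low values shrinks a fold change: on fragments, edgeR gave -2.46 for VC200 vs VC20 (adjusted p = 0.232) and -1.70 for VC600 vs VC20 (adjusted p = 0.792). In VC600 vs VC200 the log2 fold change was 0.36 on FPKM + 1 (limma, adjusted p = 0.830). Without tree C of VC200, VC200 vs VC20 gave -0.98 (limma, adjusted p = 0.322).

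Between the 2 homologs, *Gb_21756* exceeded *Gb_39102* in every library. The ratio of their FPKM values was 54.8, 550 and 54.2 in VC20 trees A, B and C, 128 and 301 in VC200 trees A and B, and 139, 242 and 786 in VC600 trees. No ratio was formed for tree C of VC200, where *Gb_39102* was at 0. These ratios varied with the level of *Gb_39102* more than with that of *Gb_21756*, and they overlapped between the age groups.

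**Figure D1:**
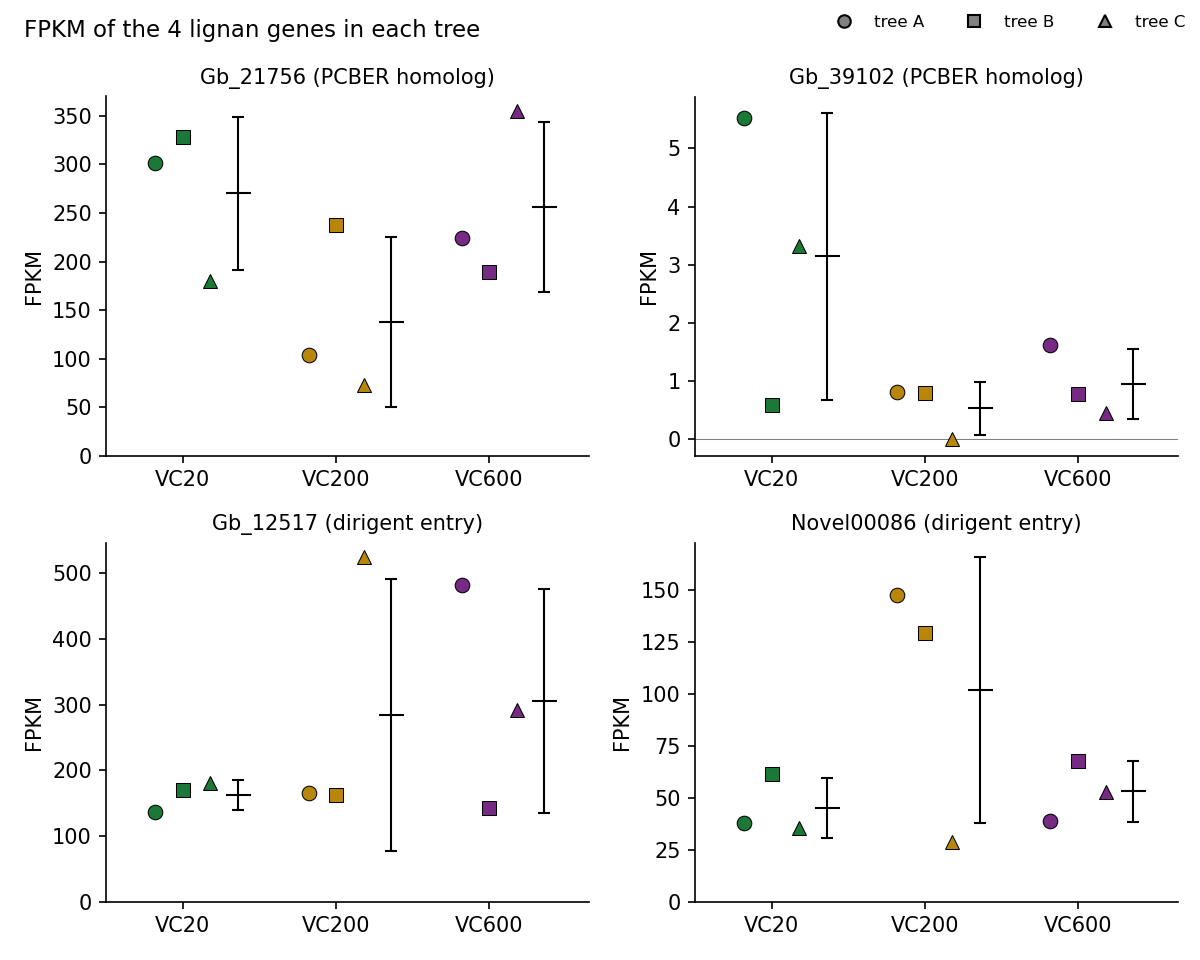
FPKM of *Gb_21756*, *Gb_39102*, *Gb_12517* and *Novel00086* (y axes, linear) in the trees of VC20, VC200 and VC600 (x axis). Each symbol is 1 tree (circle A, square B, triangle C), and the bar beside each group is the mean with the SD of 3 trees. Tree C of VC200 is lowest for *Gb_21756*, *Gb_39102* and *Novel00086* and highest for *Gb_12517*.

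The dirigent entry *Gb_12517* had similar levels in the young trees and in 3 of the 6 older ones, and higher levels in the other 3. It lies on the minus strand of scaffold 19973, at positions 157195 to 157770, with a transcript length of 576 bases equal to its span. It had 136, 170 and 181 FPKM in VC20 trees A, B and C, 166, 163 and 524 FPKM in VC200 trees and 482, 142 and 292 FPKM in VC600 trees. Trees A and B of VC200 and tree B of VC600 lay within or near the range of VC20, and the high values came from tree C of VC200 and trees A and C of VC600. The coefficient of variation was 14.2% for the VC20 trees, 73.0% for the VC200 trees (1.48% without tree C) and 55.8% for the VC600 trees. This difference in spread between groups of 3 trees was not tested. Counting error was 1.43% to 2.79%, on 1289 to 4891 fragments per library.

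No comparison of *Gb_12517* passed the test. In VC200 vs VC20 it averaged 284 ± 207 FPKM in VC200 and 162 ± 23.1 FPKM in VC20 (SD, n = 3 each), a log2 fold change of 0.58 (95% interval -0.62 to 1.78, limma, adjusted p = 0.556). Without tree C of VC200 the value was 0.03 (adjusted p = 0.976), so the higher mean of VC200 was that of 1 tree. In VC600 vs VC20 it averaged 305 ± 170 FPKM in VC600, a log2 fold change of 0.75 (95% interval -0.45 to 1.95, limma, adjusted p = 0.836). Set against VC200, VC600 had a log2 fold change of 0.16 (95% interval -1.04 to 1.36, limma, adjusted p = 0.933), 0.72 without tree C of VC200 (adjusted p = 0.438) and -0.07 in edgeR on fragments (adjusted p = 0.978).

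The dirigent entry *Novel00086* differed from *Gb_12517* in which old trees were high. It is listed on the minus strand of scaffold C26160003, from position 94 to 4205, a span of 4112 bases, but with a transcript length of only 147 bases. Since FPKM divides by that length, its level relative to other genes depends on this short model, whereas all trees share the same divisor. How the model affects which fragments were counted in each library was not tested. It had 37.8, 61.5 and 35.6 FPKM in VC20 trees A, B and C, 148, 129 and 28.9 FPKM in VC200 trees and 38.7, 67.9 and 52.7 FPKM in VC600 trees. Trees A and B of VC200 were above every other tree, whereas tree C of VC200 was the lowest of all 9. The fragments behind these values numbered 102, 158 and 85 for VC20, 408, 342 and 69 for VC200, and 100, 157 and 130 for VC600, with a counting error of 4.95% to 12.04%.

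In VC200 vs VC20, *Novel00086* averaged 102 ± 63.8 FPKM in VC200 and 45.0 ± 14.4 FPKM in VC20 (SD, n = 3 each), a log2 fold change of 0.90 (95% interval -0.37 to 2.17) that did not pass the test (limma, adjusted p = 0.389). The result turned on tree C of VC200. Without that tree the log2 fold change was 1.64 and *Novel00086* was called higher in VC200 (limma, adjusted p = 0.047), in a fit that called 1.03% of all tested entries. With library weights it was 1.63 (limma, adjusted p = 0.00629), in a fit that called 7.49% of them. Neither edgeR (1.28, adjusted p = 0.202) nor DESeq2 (1.29, adjusted p = 0.110) on fragments called it. In VC600 vs VC20 the log2 fold change was 0.24 (95% interval -1.03 to 1.51, limma, adjusted p = 0.962), with means of 53.1 ± 14.6 FPKM in VC600 and 45.0 ± 14.4 FPKM in VC20. For VC600 vs VC200 it was -0.66 (limma, adjusted p = 0.707), and -1.40 without tree C of VC200 (adjusted p = 0.108).

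In limma, 0 of the 4 genes were called in VC200 vs VC20, where 0.99% of all tested entries were called. The count was likewise 0 of 4 in VC600 vs VC20 and in VC600 vs VC200, where 0.00912% and 0.00456% of tested entries were called. At such shares no call among 4 genes says little about them. At an unadjusted p under 0.05 there were 2, 0 and 1 genes in these comparisons, against 4415, 1486 and 2228 of 21924 tested entries. On fragments, edgeR also called 0 of 4 in each, in fits that called 55, 0 and 1 of 22407 entries. DESeq2 on fragments called 0 of 4 as well, in fits that called 1131, 167 and 342 of 30910 entries. The libraries of the groups compared overlapped for all 4 genes in all 3 comparisons, whereas 28.5%, 16.1% and 14.3% of tested entries had groups that did not overlap. Two-sided exact permutation tests of 3 trees against 3, in which the smallest possible p is 0.1, gave p = 0.2 to 1 over the 12 tests of a gene in a comparison, and 0.686 to 1 after Benjamini-Hochberg adjustment. Both PCBER homologs had log2 fold changes below 0 in VC200 vs VC20 and in VC600 vs VC20, and both dirigent entries had values above 0. Some of these values were small. The -0.08 of *Gb_21756* in VC600 vs VC20 changed sign under 3 alternatives. *Gb_12517* was at 0.03 in VC200 vs VC20 without tree C of VC200. The median over all tested entries was -0.12 in VC200 vs VC20 and -0.02 in VC600 vs VC20.

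**Figure D2:**
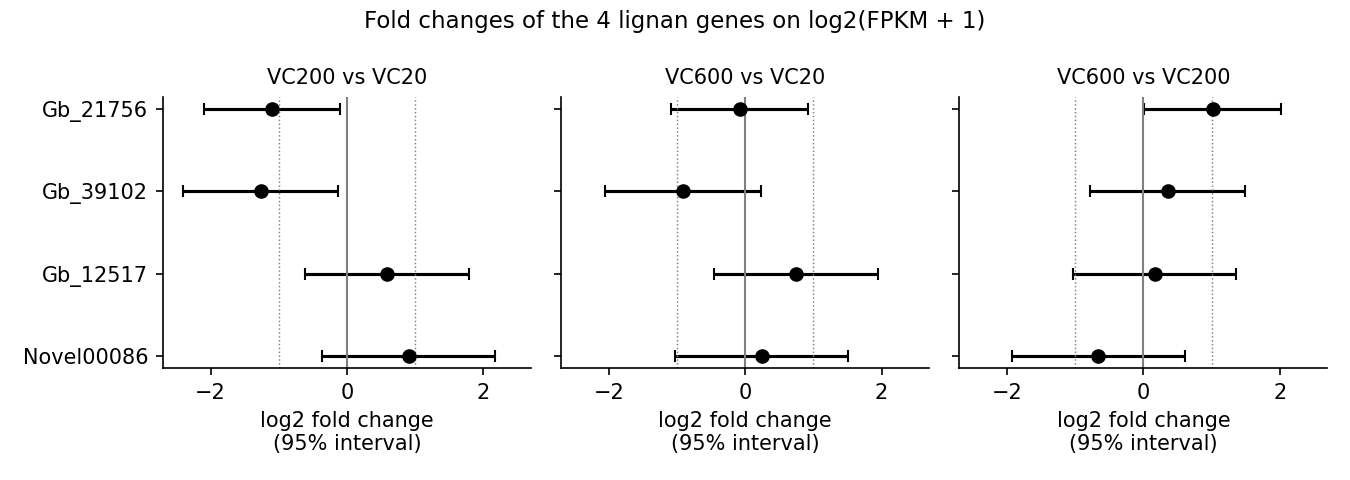
Log2 fold changes of FPKM + 1 (x axis) of the 4 genes (y axis) in the 3 comparisons (VC200 or VC600 vs VC20, and VC600 vs VC200). Points are limma estimates, bars are 95% intervals before adjustment for many tests, and dotted lines mark a log2 fold change of -1 and 1. The intervals of *Gb_21756* and *Gb_39102* lie below 0 in VC200 vs VC20, but their adjusted p values were 0.214 and 0.209.

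All 4 genes varied between trees of 1 age group, which differ in age themselves, more than most genes did. The SD of log2(FPKM + 1) within groups was 0.63 for *Gb_21756*, 0.71 for *Gb_39102*, 0.76 for *Gb_12517* and 0.81 for *Novel00086*, against a median of 0.32 over tested entries. From 85.3% to 92.1% of tested entries had a smaller SD. Without tree C of VC200 the SDs were 0.56, 0.71, 0.57 and 0.37 in the same order of genes, against a median of 0.27, and 71.0% (*Novel00086*) to 94.5% (*Gb_39102*) of entries had a smaller one. 

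The balance of the abundant PCBER homolog and *Gb_12517* within a library, which no scaling between libraries affects, also differed widely between trees of 1 group. The FPKM of *Gb_21756* divided by that of *Gb_12517* was 2.21, 1.92 and 0.999 in VC20 trees A, B and C, 0.622, 1.46 and 0.139 in VC200 trees and 0.466, 1.33 and 1.22 in VC600 trees. *Gb_21756* was the higher of the pair in 2 trees of VC20, 1 of VC200 and 2 of VC600, and the pair was about equal in tree C of VC20. The lowest ratio, in tree C of VC200, combined the lowest *Gb_21756* level with the highest *Gb_12517* level of the 9 trees.

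**Figure D3:**
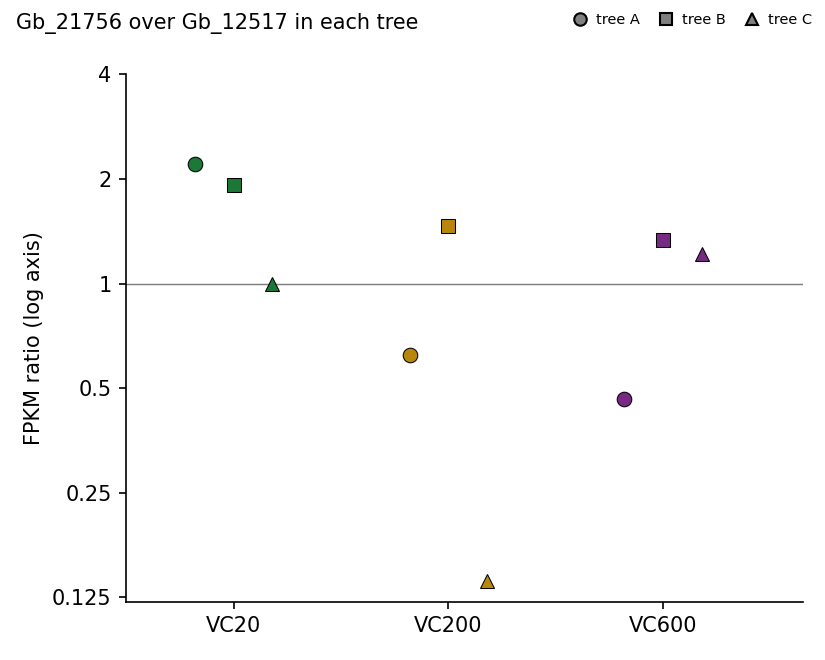
Ratio of the FPKM of *Gb_21756* to that of *Gb_12517* within each library (y axis, log scale) for the trees of VC20, VC200 and VC600 (x axis). Each symbol is 1 tree (circle A, square B, triangle C), and the horizontal line marks equal FPKM. Ratios run from 0.139 in tree C of VC200 to 2.21 in tree A of VC20, and the 3 groups overlap.

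The 4 genes did not follow 1 pattern across the 9 trees. As a description over these libraries, Pearson's r of log2(FPKM + 1) was 0.37 between both PCBER homologs and -0.52 between both dirigent entries. It was -0.35 between *Gb_21756* and *Gb_12517*, and 0.00 between *Gb_21756* and *Novel00086*. Most of these values turned on tree C of VC200: over the 8 other libraries they were 0.02, -0.35, 0.18 and -0.49 in the same order. Of the 21923 other tested entries, *Gb_29102* (r = 0.98) and *Gb_30406* (r = 0.98) were most like *Gb_21756*, and the fifth was *Gb_18245* (r = 0.97), an *HD-ZIP III* gene of the cambium list, a family that in *Arabidopsis* acts in vascular patterning. The entries most like *Gb_39102* were *Gb_03141* (r = 0.96) and *Novel00863* (r = 0.94). Those most like *Gb_12517* were *Gb_35067* (r = 0.96) and *Gb_12903* (r = 0.94), and those most like *Novel00086* were *Gb_09070* (r = 0.99) and *Gb_30896* (r = 0.99). Apart from *Gb_18245*, the files do not name these entries. Without tree C of VC200 these r values were 0.91 to 0.99, and only *Gb_03141* and *Gb_09070* were still the entry most like their gene. *Gb_18245* then ranked 10 for *Gb_21756* (r = 0.96). The highest of so many values over 9 libraries is high by selection, and the group means and the library of VC200 tree C are shared by all of them.

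*Gb_18245* was named above for its high correlation with *Gb_21756* over these same libraries, so its levels only describe that likeness. It had 41.0, 52.9 and 31.0 FPKM in VC20 trees A, B and C, 18.7, 44.6 and 9.98 FPKM in VC200 trees and 39.4, 32.9 and 47.9 FPKM in VC600 trees. Trees A and C of VC200 were again the lowest, and tree B of VC200 lay among the young trees. The summed FPKM of the whole cambium list in trees A, B and C was 153, 220 and 113 for VC20, 72.9, 161 and 27.6 for VC200, and 143, 97.2 and 200.1 for VC600. All 7 of its genes had log2 fold changes below 0 in VC200 vs VC20 (median -1.09, against -0.12 over all tested entries) and 0 of 7 were called, beside the -1.10 of *Gb_21756*. Without tree C of VC200 all 7 were still below 0, with a median of -0.48, beside -0.73 for *Gb_21756*. Library weights called 1 of the 7, in a fit that called 7.49% of all tested entries. The part of these marker levels in the *Gb_21756* values was not tested.

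The xylem list (laccase and cellulose synthase entries, 9 genes) also had its lowest sums in VC200. They were 108, 122 and 55.4 FPKM in VC20, 24.0, 30.1 and 12.1 FPKM in VC200 and 56.1, 71.7 and 43.4 FPKM in VC600, and the VC200 trees lay below all others. The xylem list shares entries with the laccase list described next, among them *Gb_00462* and *Gb_11065*, so both lists are not separate observations. In VC200 trees 2 to 5 of the 9 genes were at 0, against 0 in VC20 trees and 0 or 1 in VC600 trees. Of the 6 genes that passed the filter, 0 were called in VC200 vs VC20, where 5 had values below 0 (median -2.91, or -2.696 without tree C of VC200). With library weights limma called 5 of the 6, in a fit that called 7.49% of all tested entries. DESeq2 on fragments, which did not apply the filter on low values, called 6, in a fit that called 1131 of 30910 entries. The 1 filtered entry with a value above 0 was the cellulose synthase *Gb_29421*, at 1.25 (limma, adjusted p = 0.066). Of the 9 genes, 8 stand in the study's own tables of changed genes, so the list is not independent evidence of a direction. The part of xylem marker levels in the values of the 4 genes was not tested. No entry was assigned to phloem.

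Laccases act upstream of dirigent coupling, and several of their entries were called in VC200 vs VC20. Of 14 laccase entries, 10 passed the filter, and 5 of those were called lower in VC200 vs VC20 (*Novel00066*, *Novel01534*, *Novel01537*, *Novel01705* and *Novel01787*). Their log2 fold changes were -3.70 to -2.33, with limma adjusted p = 0.0289 to 0.0497, in a fit that called 0.99% of all tested entries. All 10 tested laccases had values below 0 there (median -2.91, or -2.72 without tree C of VC200, against -0.12 over all tested entries). Of these, only *Gb_11065* and *Novel01787* reached 1 FPKM in any VC200 tree. The others passed the filter only through VC20 and VC600, where they were high, so their direction was partly set by the filter. Among the entries that failed it, *Gb_34469* averaged 0.419 FPKM in VC200 and 0.123 FPKM in VC20, and the rest had lower means in VC200. The summed FPKM of all 14 entries was 4.41, 4.21 and 0.09996 in VC200 trees A, B and C, against 102, 158 and 45.9 in VC20 trees, and it was 73.3, 80.4 and 58.8 in VC600 trees. *Gb_00462*, annotated as laccase 17, was at 0 in all VC200 trees and at 2.74 to 13.8 FPKM in VC20 trees. Of the 14 entries, 12 are in the study's tables of changed genes, so these counts do not stand as independent evidence. In VC600 vs VC20 and in VC600 vs VC200, unweighted limma called 0 of 10. With library weights limma called 8 laccases in VC200 vs VC20 and 5 in VC600 vs VC200, in fits that called 1643 and 383 of 21924 entries.

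The calls on laccases depended on single libraries. Without tree A, B or C of VC20, or tree A or B of VC200, 0 laccases were called in VC200 vs VC20, and without tree C of VC200 there were 2. In those fits the all-gene count was 8, 3, 11, 0 and 21, and 224 without tree C of VC200, against 217 with all libraries. The laccase sums themselves were lower in every VC200 tree than in any tree of VC20 or VC600.

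**Figure D4:**
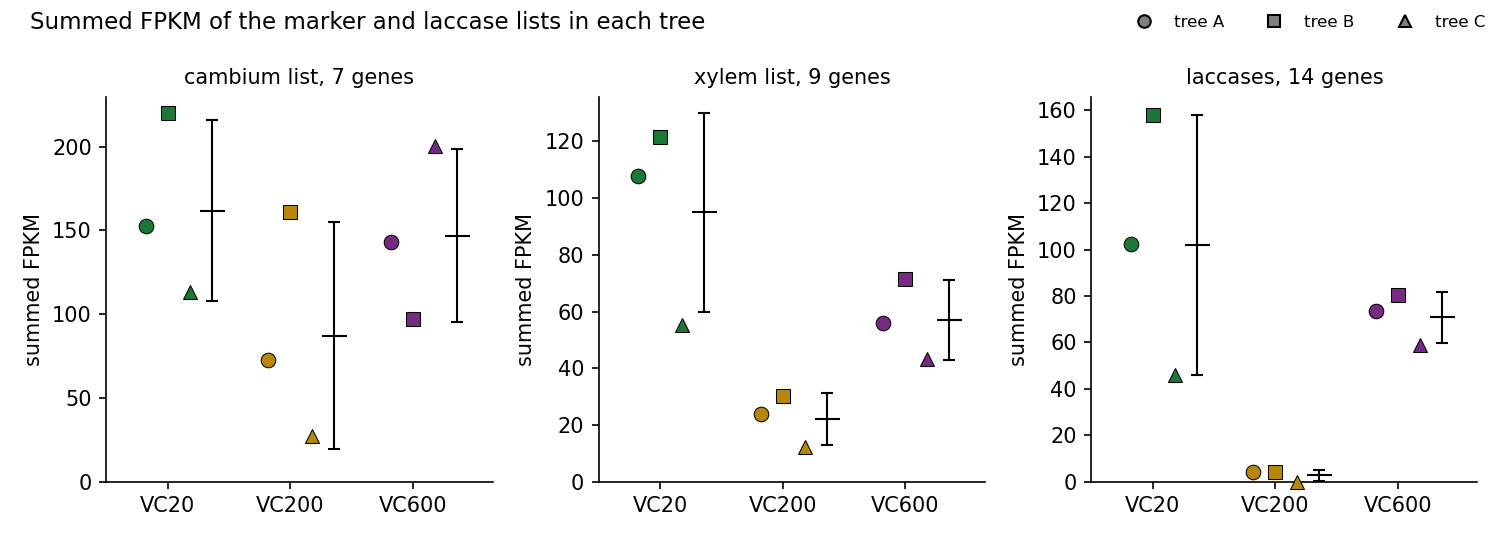
Summed FPKM (y axes, linear) of the cambium list (7 genes), the xylem list (9 genes) and the laccase entries (14 genes) in the trees of VC20, VC200 and VC600 (x axis). Each symbol is 1 tree (circle A, square B, triangle C), and the bar beside each group is the mean with the SD of 3 trees. Laccase sums in VC200 are at most 4.41 FPKM, against at least 45.9 FPKM in VC20 and 58.8 FPKM in VC600, while the cambium sums of the groups overlap. The xylem and laccase lists share entries.

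Downstream of dirigent coupling, PLR and secoisolariciresinol dehydrogenase had lower means in old trees, and limma called 0 of their 3 entries in any comparison when libraries were not weighted. With the weights, limma called both PLR entries lower in VC200 vs VC20, *Gb_31335* at -1.55 (adjusted p = 0.020) and *Novel00244* at -1.695 (adjusted p = 0.00681). DESeq2 on fragments also called *Novel00244*, at -3.68 in VC200 vs VC20 (adjusted p = 0.00397) and at 3.52 in VC600 vs VC200 (adjusted p = 0.0203). In VC200 vs VC20 the weighted fit called 7.49% of all tested entries, and DESeq2 called 1131 of 30910. Of the 2 PLR entries, 1 is in the study's tables of changed genes, so these calls do not stand as independent evidence. The PLR entry *Gb_31335* had 8.49, 13.9 and 1.39 FPKM in VC200 trees A, B and C, against 34.2, 29.3 and 11.2 FPKM in VC20 trees, and 8.29, 17.99 and 9.01 FPKM in VC600 trees. Tree C of VC20 was below tree B of VC200 and tree B of VC600, so that groups overlapped. Its log2 fold change by limma stood at -1.75 for VC200 vs VC20 (adjusted p = 0.201). It stood at -0.96 for VC600 vs VC20 (adjusted p = 0.836). The other PLR entry, *Novel00244*, had at most 3.57 FPKM in any tree, and for VC200 vs VC20 its log2 fold change was -1.58 (limma, adjusted p = 0.085). Without tree C of VC200 the median of both PLR entries in VC200 vs VC20 was -1.23, against -1.67 with it, and 0 were called.

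The secoisolariciresinol dehydrogenase entry *Gb_05039* reached levels like those of the abundant PCBER homolog in young trees. It had 99.1, 91.5 and 7.34 FPKM in VC200 trees A, B and C, against 208, 278 and 340 FPKM in VC20 trees, and 17.8, 58.8 and 98.4 FPKM in VC600 trees. Every older tree lay below every VC20 tree. Groups that did not overlap in this way were found for 28.5% of tested entries in VC200 vs VC20 and for 16.1% in VC600 vs VC20. For *Gb_05039* limma gave -2.67 (SE 0.94, adjusted p = 0.175) in VC200 vs VC20, and -2.49 (SE 0.94, adjusted p = 0.686) in VC600 vs VC20, both as log2 fold changes, and neither passed the test. Without tree C of VC200 the log2 fold change of *Gb_05039* in VC200 vs VC20 was -1.49, and it was not called. The third dirigent entry, *Gb_16132*, had 1.58, 2.11 and 4.48 FPKM in VC200 trees, against 0.0898, 0.472 and 0 FPKM in VC20 trees, and 0.188, 0.105 and 0.984 FPKM in VC600 trees. It was highest in the VC200 trees, but for VC200 vs VC20 the log2 fold change of 1.59 did not pass the test (limma, adjusted p = 0.062). It was called higher with library weights (1.23, adjusted p = 0.00747) and by DESeq2 on fragments (4.09, adjusted p = 0.0122). However, *Gb_16132* reached 1 FPKM only in the VC200 trees, so it passed the filter on low values only through the group where it was high. Without tree C of VC200 it failed that filter. Its VC20 levels rest on 1, 5 and 0 fragments in trees A, B and C. Both *Gb_05039* and *Gb_16132* are in the study's tables of changed genes.

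**Figure D5:**
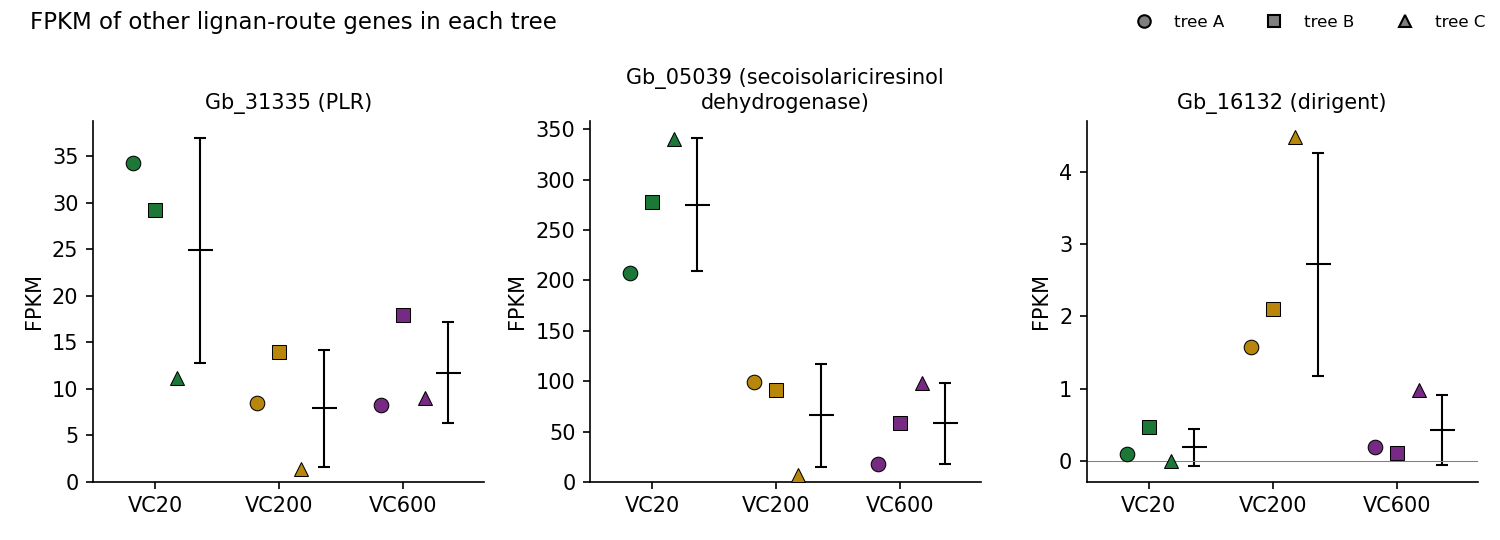
FPKM (y axes, linear) of PLR *Gb_31335*, secoisolariciresinol dehydrogenase *Gb_05039* and dirigent *Gb_16132* in the trees of VC20, VC200 and VC600 (x axis). Each symbol is 1 tree (circle A, square B, triangle C), and the bar beside each group is the mean with the SD of 3 trees. *Gb_05039* is at 208 to 340 FPKM in VC20 and at most 99.1 FPKM in older trees, and *Gb_16132* is highest in VC200, at 1.58 to 4.48 FPKM.

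Few annotated neighbours lie near the 4 genes. *Gb_21750*, on the plus strand at positions 209475 to 210058 of scaffold 3515, lies inside the span of *Gb_21756* and was at 0 FPKM in all libraries. No source used here gives the strand setting of the counting, so reads of such an overlapping pair might not be told apart. *Gb_39103* lies 3 bases upstream of *Gb_39102* on the same strand and had 2.37, 0.699 and 0.646 FPKM in VC20 trees, 0, 0.582 and 0 FPKM in VC200 trees and 1.39, 0 and 0 FPKM in VC600 trees. Like *Gb_39102*, it was highest in tree A of VC20 and at 0 in tree C of VC200. *Gb_12515*, 87432 bases from *Gb_12517* on the other strand, had 32.4 FPKM in tree C of VC200, the tree in which *Gb_12517* was highest, and at most 0.286 FPKM elsewhere. In trees A and C of VC600, where *Gb_12517* was also high, *Gb_12515* had only 0.102 and 0.107 FPKM.

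Small RNA was sequenced only for the A and B trees, and 2 of the 4 genes stand in the deposited list of predicted miRNA targets. That list holds 3078 pairs for 3078 genes, against 43911 entries in the gene table, so further pairs of a gene may be missing from it. *Gb_21756* is paired with the predicted entry novel_411, which had 3 and 5 reads in the VC20 libraries, 2 and 2 in those of VC200 and 1 and 1 in those of VC600, 14 reads in all. *Gb_12517* is paired with ath-miR5658, which had 1 read in tree B of VC20 and 0 in the other 5 libraries, and which is paired with 129 genes in that list. Libraries held 1184091 to 1842055 miRNA reads, so both entries were too scarce to pass the filter of the count test. No difference between ages was detectable at this depth.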

How the data were processed

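RNA-seq covered 9 cambium libraries (3 trees each in VC20, VC200 and VC600) and small RNA sequencing covered 6. The authors deposited FPKM values per gene with scaffold, strand, start, end and length. The study's methods name HISAT for alignment to the *G. biloba* genome, whereas the submitters' processing notes name TopHat2 2.0.12 and Cufflinks 2.1.1. The counting tool and strand setting are not given in the sources used here. The authors also deposited a raw read count per miRNA entry and predicted targets.

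FPKM times gene length gave whole fragments, within 0.02, for 97.4% of values above 0. Fragments were recovered for 43152 entries. The other 759 were left out of count tests. DESeq2, which the study's methods name for its counts, was therefore an alternative.

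The main test was limma 3.58.1 (R 4.3.3, trended eBayes). It took log2(FPKM + 1) of entries that reached 1 FPKM in 3 or more libraries, fitted all 9 libraries together, and used Benjamini-Hochberg adjustment over 21924 entries. edgeR 4.0.16 (quasi-likelihood) tested miRNA counts and, as an alternative, fragments, as did DESeq2 1.42.0. Intervals are at 95%. Further alternatives were a pseudocount of 0.1, quantile normalization, all entries unfiltered, only the groups compared, library weights, a replicate block and leaving out each library. Fits were tested on simulated data. Python 3.11.15, pandas 2.3.3, numpy 2.4.6, scipy 1.17.1 and matplotlib 3.10.9 were used.

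The 4 genes and all lists were chosen with earlier results of these data known. Since the gene table lacks annotation, list words were applied to annotations in the study's text and supplementary tables, some of them shortened, so the lists are incomplete. Named were the 4 genes, called or abundant list entries, neighbours within 100 kb, paired miRNAs, and the entries most correlated with each gene. Letters name trees in order of age, and the main fit did not treat them as pairs. Of 9 same-letter pairs, 2 had deviations correlated above 0.1.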

Additional observations from a re-analysis of the deposited data

How the results depend on the processing

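Of 193 values of the 4 genes under alternatives, 182 kept their direction and their side of the threshold, 3 were called only under the alternative and 8 changed sign. In VC200 vs VC20, library weights called *Gb_21756* (-1.22) and *Novel00086* (1.63). The sign of *Gb_12517* in VC600 vs VC200 turned in edgeR (-0.069) and in DESeq2 (-0.10). Leaving out each library gave *Novel00086* 0.49 to 1.64 in VC200 vs VC20 (called without tree C of VC200), *Gb_21756* -0.35 to 0.11 in VC600 vs VC20 and *Gb_12517* -0.25 to 0.72 in VC600 vs VC200. *Gb_39102* gave no value where it failed the filter, which happened without tree A or C of VC20 or tree A of VC600, and in fits of VC200 with VC20 or VC600 alone.

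The number of all tested genes called in VC200 vs VC20 (217) was 75 with no filter, 104 with only the groups compared, 1643 with library weights, 55 in edgeR, 1131 in DESeq2 and 0 to 224 with each library left out. In VC600 vs VC20 (2) it was 4 with only the groups compared, 47 with weights, 0 in edgeR, 167 in DESeq2 and 0 to 21 with each library left out. In VC600 vs VC200 (1) it was 5 with a pseudocount of 0.1, 2 with no filter, 4 with only the groups compared, 383 with weights, 342 in DESeq2 and 0 to 16 with each library left out. Of the 18 other lignan-route genes, 5 were called in VC200 vs VC20, against 3 with no filter, 1 with only the groups compared, 11 with weights, 2 in edgeR, 12 in DESeq2 and 0 to 5 with each library left out. In VC600 vs VC200 the count was 0, against 2 with a pseudocount of 0.1, 1 with only the groups compared, 5 with weights, 10 in DESeq2 and 0 to 2 with each library left out.

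With the replicate letter as a block, the all-gene counts were 58, 0 and 0, and 3 lignan-route genes were called in VC200 vs VC20. Correlations of deviations ran from -0.24 to 0.28 for same-letter pairs and from -0.30 to 0.27 for different-letter pairs. The letters follow the order of age within a group. These values cannot show whether same-letter trees share anything more. The block called 0 of the 4 genes. The causes of these shifts were not tested. The least counted were *Gb_39102* (0 to 107 fragments a library) and both paired miRNA entries. The descriptions without tree C of VC200 were added after seeing the data.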
